A study of Homo sapiens with 3 samples.

Results

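Glucagon barcodes of high mitochondrial share were compared with glucagon barcodes of usual share. A barcode marks the RNA of a single droplet, and a glucagon barcode was one with at least 1000 genes in which GCG, the gene of proglucagon, held at least 5% of the UMIs (counted RNA molecules) outside the 13 mitochondrially encoded genes. On the high side those 13 genes held more than 25% and at most 50% of all UMIs of a barcode, and on the usual side 8 to 20%. The high side had 138, 56 and 182 barcodes in replicates 1, 2 and 3 and the usual side 858, 782 and 950. The 2 sides together were 2966 of 3792 glucagon barcodes and of 9683 barcodes in all, and 826 glucagon barcodes lay outside both. The 3 libraries form a single group of HUES8 cells, an established human embryonic stem cell line, differentiated into islet-like clusters of stem-cell-derived alpha cells (SC-alpha), taken apart with TrypLE for 10 minutes at 37 °C and sequenced with 10x Genomics 3' v3 chemistry. There was no second line, genotype or treatment, and the labels do not say whether the replicates were separate differentiations. A p-value here therefore rests on variation over these libraries alone, which could be purely technical. The test shares its estimate of variation across genes, so a p-value does not measure the spread of a single gene over the 3 libraries.

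Alpha cells release glucagon, which raises blood glucose by acting on the liver. Their mitochondria carry a small genome of their own that encodes core subunits of the respiratory chain, while all other mitochondrial proteins are encoded in the nucleus and translated in the cytosol. The mitochondrial share of a barcode is widely used as a filter in single-cell work, since damaged cells that lose cytosolic RNA and cells rich in mitochondria can both carry a high share.

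The alpha-cell identity of both sides was checked on marker genes that the choice of barcodes did not use. IRX2, an alpha-cell transcription factor, stood at 466, 543 and 466 CPM on the high side and at 489, 533 and 478 CPM on the usual side (CPM, the UMIs of a gene per 1000000 UMIs outside the mitochondrial genes). The values of the 2 sides overlapped. Other alpha markers were lower on the high side. GC stood at 716, 573 and 582 CPM against 1079, 687 and 669 CPM, and TTR at 78876, 76377 and 87413 CPM against 87964, 86481 and 88084 CPM. The 5 tested alpha markers other than GCG had a median log2 fold change of −0.15, high against usual. IRX2 alone therefore does not show that the sides were equal in alpha-cell RNA. Of 5 endothelial and blood markers, CDH5, PTPRC, HBB and HBG2 were at 0 in all 6 sums and PECAM1 was above 0 in a single sum. The 5 mesenchyme markers summed to 1.30, 2.30 and 9.03 CPM on the high side and 2.72, 2.47 and 17.1 CPM on the usual side, and the 8 cycling markers to 37.7, 4.59 and 4.86 against 13.4, 37.2 and 4.30 CPM.

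The sequences that matter most for reading the results belong to MTRNR2L genes, nuclear copies of the mitochondrial 16S ribosomal RNA gene MT-RNR2, because 3 of them were among the genes with the largest differences. MT-RNR2 itself is not among the 13 mitochondrial genes counted in the files, and the copies are counted as nuclear genes. Their annotated 72-base coding stretch (GRCh38) is shown with the matching stretch of MT-RNR2, 5′ to 3′ on the transcribed strand, with bases that differ from MT-RNR2 in capitals. MTRNR2L12 lies at chr3:96617202-96617273 on the minus strand, MTRNR2L1 at chr17:22524062-22524133 on the plus strand, MTRNR2L8 at chr11:10508155-10508226 on the minus strand and the stretch of MT-RNR2 at chrM:2633-2704 on the plus strand.
MTRNR2L12: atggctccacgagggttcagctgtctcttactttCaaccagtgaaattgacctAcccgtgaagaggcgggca
MTRNR2L1: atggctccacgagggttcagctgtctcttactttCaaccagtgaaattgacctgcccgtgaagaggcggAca
MTRNR2L8: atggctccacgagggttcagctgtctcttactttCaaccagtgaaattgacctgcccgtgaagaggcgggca
MT-RNR2: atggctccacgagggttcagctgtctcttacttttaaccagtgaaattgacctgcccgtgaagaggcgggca
The copies differed from MT-RNR2 at 2, 2 and 1 of the 72 bases. Over the whole transcript they matched it at 95.3% of 1047 aligned bases, 89.5% of 1540 and 93.2% of 1301.

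The values that chose the barcodes are given as a description. The median mitochondrial share was 30.8%, 30.0% and 29.1% on the high side and 15.1%, 15.3% and 15.3% on the usual side. High-side barcodes held more mitochondrial UMIs, with medians of 5090.5, 7030.5 and 3255 against 2523, 3411.5 and 1581. They also held fewer other UMIs, with medians of 10760, 15604 and 7745.5 against 13989.5, 19340.5 and 8846.5. The total per barcode was close, at 16269, 22299 and 11356 UMIs against 16564, 22738 and 10410. Thus both parts of the ratio differed in all 3 libraries, and the mitochondrial part differed more.

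**Figure D1:**
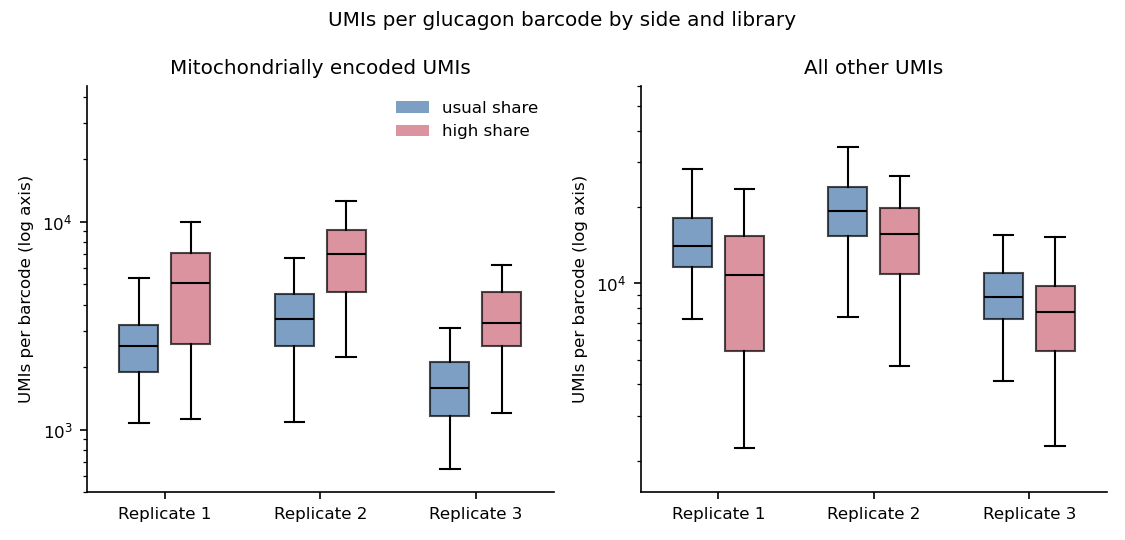
Mitochondrially encoded UMIs (left) and all other UMIs (right) per glucagon barcode, on log axes, for each library and side. Boxes span the middle quartiles with the median as a line, and whiskers reach the 5th and 95th percentiles; in each library the high side has the higher median on the left and the lower median on the right.

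The borders of the rule cut through a continuous range. In replicate 1, 28 barcodes lay between 24 and 25% with a median of 4055.5 mitochondrial UMIs, and 27 lay between 25 and 26% with a median of 3486. In replicate 3 the corresponding groups had 46 barcodes with a median of 3049.5 and 37 with a median of 3535. Above 50%, outside both sides, lay 30, 14 and 9 glucagon barcodes, whose median of other UMIs was only 2594.5, 4206.5 and 2529. GCG itself, also part of the rule, made up 150511, 188342 and 112057 CPM on the high side and 176341, 188477 and 148434 CPM on the usual side.

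High-side barcodes, which were shallower, had fewer detected genes, with medians of 3706, 4498.5 and 2924 genes outside the mitochondrial set against 4016, 4765.5 and 3095. After each barcode was thinned to 3000 such UMIs, the order turned and the high side had 1442, 1400 and 1507 genes against 1386, 1377 and 1438. Thinning left out 15, 1 and 17 shallower barcodes of the high side and 10, 10 and 29 of the usual side.

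Within the mitochondrial UMIs, the 13 genes kept much the same proportions on both sides. MT-CO1, which encodes the catalytic subunit of cytochrome c oxidase, was the most abundant at 19.1%, 21.4% and 19.1% of mitochondrial UMIs on the high side and 20.5%, 22.6% and 20.2% on the usual side. MT-ND2, a subunit of complex I, took 3.90%, 3.83% and 3.71% against 4.60%, 4.78% and 4.63%. MT-ATP6, a subunit of ATP synthase, took 15.5%, 14.97% and 17.1% against 14.3%, 13.8% and 15.5%. MT-CO1 and MT-ND2 had a lower part and MT-ATP6 a higher part on the high side in all 3 libraries, and MT-CYB, the cytochrome b of complex III, also had a higher one, at 10.0%, 9.69% and 11.3% against 9.26%, 8.57% and 10.4%. These genes define the sides, so no test was made.

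**Figure D2:**
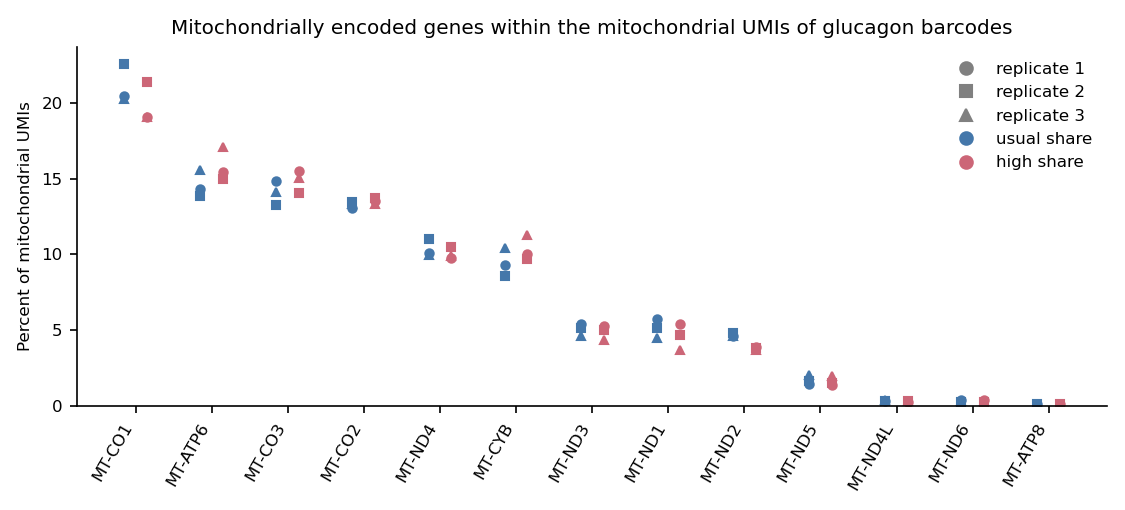
Percent of all mitochondrial UMIs that each of the 13 mitochondrially encoded genes took in glucagon barcodes, by side (colour) and library (symbol). MT-ND2 lies at 3.71 to 3.90% on the high side and 4.60 to 4.78% on the usual side.

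Outside the mitochondrial genes and GCG, few genes differed. UMIs were summed per library and side and tested with edgeR's quasi-likelihood test with the library as a block (3 pairs of sums, n = 3). Of 12849 genes tested, 49 were higher on the high side (0.381%) and 43 lower (0.335%), or 0.716% in all, at an adjusted p under 0.05. The 49 include 5 MTRNR2L genes, whose calls may follow from the choice of barcodes, as described below. The fit is centred by TMM factors. By plain CPM the median gene was 0.11, 0.01 and 0.09 log2 units higher on the high side in replicates 1, 2 and 3, and fold changes are relative to that shift. Long noncoding genes were 8.16% of the 49 higher genes and 7.53% of all genes tested. By plain CPM 24.6% of all genes tested were higher on the high side in every library and 9.49% were lower in every library.

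The 3 MTRNR2L genes had the smallest p-values of all. MTRNR2L12 stood at 3281, 2601 and 1776 CPM on the high side and 1387, 1058 and 868 CPM on the usual side. MTRNR2L1 stood at 488, 738 and 415 CPM against 218, 319 and 184 CPM. The sides did not overlap for either gene, and the high side was higher in 3 of 3 libraries. The log2 fold change was 1.11 ± 0.064 (SE) for MTRNR2L12 (adjusted p = 9.76e-14) and 1.10 ± 0.060 for MTRNR2L1 (adjusted p = 3.86e-14), or 2.16-fold and 2.15-fold. MTRNR2L8, at 667, 1038 and 545 against 367, 598 and 367 CPM, rose by 0.67 ± 0.063 (adjusted p = 3.16e-08), with overlap between libraries. Of the 11 genes of this name in the files 7 were tested and 5 were higher, the others being MTRNR2L6 and MTRNR2L10; the family was singled out after its values were seen. The 3 copies shown above match a mitochondrial RNA at 89.5% to 95.3% of aligned bases, and the barcodes were chosen by their share of mitochondrial RNA. Any of their UMIs that came from MT-RNR2 would differ between the sides by that choice. The p-values of these genes can therefore not be read as a change of nuclear genes. Which of their UMIs came from MT-RNR2 was not tested.

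Nuclear long noncoding RNAs were the list with the largest part called. Of 7 such genes found in the files 5 were tested, 3 of the 5 were called higher (0.381% of all genes were) and 0 lower, and the median log2 fold change was 0.43 against 0.0046 over all genes tested. NEAT1 (chr11:65422774-65445540, plus strand, GRCh38), the scaffold RNA of nuclear paraspeckles, stood at 233, 201 and 281 CPM on the high side and 129, 158 and 147 CPM on the usual side. Every high-side library lay above every usual-side library, and NEAT1 rose by 0.66 ± 0.077 (adjusted p = 3.72e-06), or 1.58-fold. MALAT1 (chr11:65497688-65506516, plus strand), a very abundant RNA of nuclear speckles, stood at 36359, 17611 and 26708 CPM against 23836, 13536 and 18263 CPM. It was higher in 3 of 3 libraries, although libraries overlapped, with a log2 fold change of 0.43 ± 0.073 (adjusted p = 0.0011); without replicate 3 the adjusted p was 0.30 at a log2 fold change of 0.42. MIAT, the third, rested on 44, 6 and 11 UMIs, of which a single barcode held 54.5%, 50% and 63.6%, and without replicate 1 its log2 fold change fell from 1.40 to 0.19 (adjusted p = 0.95). KCNQ1OT1 and FTX had log2 fold changes of 0.24 (adjusted p = 0.13) and 0.12 (0.57).

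Genes whose proteins work in nuclear splicing speckles had mostly positive values, and none passed. Of 18 tested, 15 had values above 0 and 3 below, with a median of 0.08, and edgeR called 0 of them. Over all 12849 genes 6539 had values above 0 and 0.716% were called. The nearest were LUC7L3, a splicing factor, at 0.27 ± 0.067 (adjusted p = 0.051), and PNISR, a speckle-associated protein, at 0.26 ± 0.067 (adjusted p = 0.057). By plain CPM 9 of the 18 were higher on the high side in every library and 0 lower in every library, where 24.6% and 9.49% of all genes tested were.

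Among genes outside the lists, those named as higher besides the MTRNR2L genes were MLXIPL, UCN3, LGALS2, WDFY2, RIC3, EXOC7 and MICAL1. MLXIPL, which encodes the carbohydrate-response factor ChREBP, stood at 111, 101 and 82.7 CPM on the high side and 62.0, 77.2 and 43.0 CPM on the usual side, without overlap, and rose by 0.66 ± 0.094 (adjusted p = 1.28e-04). ARRDC4, a known target of the related factor MondoA that restrains glucose uptake, went the other way. It stood at 83.7, 67.8 and 117 CPM against 131, 81.7 and 167 CPM, was lower in 3 of 3 libraries and fell by 0.61 ± 0.089 on the log2 scale (adjusted p = 1.35e-04). Among the genes of glucose handling described at the end, PKLR rose and TXNIP fell, so no single direction held. LGALS2, a galectin, rose by 0.66, WDFY2, an endosomal protein, by 0.65, and RIC3, a chaperone of acetylcholine receptors, by 0.53, all with every high-side library above every usual-side one. Over all genes tested 11% had such a separation upward and 2.73% downward.

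Among immediate early genes, which cells switch on within minutes of a stimulus or of handling, the calls were all downward. Of 15 tested, 5 were called lower and 0 higher, where 0.335% of all genes were called lower. The median was −0.26, and 12 of the 15 had values below 0, as did 6310 of all 12849 genes. IER2, a small transcriptional regulator, stood at 155, 87.3 and 290 CPM on the high side and 204, 130 and 371 CPM on the usual side. FOS, a subunit of the AP-1 transcription factor, stood at 441, 140 and 420 CPM against 482, 161 and 620 CPM. DUSP1, a phosphatase that switches off MAP kinases, stood at 277, 102 and 162 CPM against 314, 130 and 232 CPM. Each was lower in 3 of 3 libraries, and the sides overlapped, with replicate 2 the lowest library on either side for all 3 genes. IER2 fell by 0.50 ± 0.072 on the log2 scale (adjusted p = 1.28e-04), DUSP1 by 0.42 ± 0.076 (adjusted p = 0.0022) and FOS by 0.41 ± 0.075 (adjusted p = 0.0026). JUNB and JUN, further AP-1 subunits, fell by 0.38 ± 0.071 (adjusted p = 0.0027) and 0.34 ± 0.062 (adjusted p = 0.0026). FOSB and EGR1 did not pass at −0.28 (adjusted p = 0.063) and −0.26 (adjusted p = 0.10), and ATF3, JUND and NR4A1 had values of 0.05, 0.01 and 0.10. Without replicate 3 FOS, DUSP1 and JUNB did not pass, at −0.24 (adjusted p = 0.34), −0.32 (0.12) and −0.28 (0.20). With the high side limited to 35 to 50% none of the 5 did, at values from −0.38 to −0.19.

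The promoters of 3 of these genes are printed because the genes moved together, as the 250 bases before the RefSeq start, on the gene's strand, from GRCh38.p14. Capitals mark TGACG or its reverse complement CGTCA, the core of the site bound by CREB and ATF factors. IER2 is from chr19:13150161-13150410 (plus strand), DUSP1 from chr5:172771196-172771445 (minus strand) and FOS from chr14:75278578-75278827 (plus strand).
IER2: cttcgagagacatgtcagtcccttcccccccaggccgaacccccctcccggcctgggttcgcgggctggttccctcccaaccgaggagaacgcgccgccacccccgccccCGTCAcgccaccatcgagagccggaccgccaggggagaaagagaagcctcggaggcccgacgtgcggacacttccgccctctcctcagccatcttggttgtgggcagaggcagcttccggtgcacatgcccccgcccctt
DUSP1: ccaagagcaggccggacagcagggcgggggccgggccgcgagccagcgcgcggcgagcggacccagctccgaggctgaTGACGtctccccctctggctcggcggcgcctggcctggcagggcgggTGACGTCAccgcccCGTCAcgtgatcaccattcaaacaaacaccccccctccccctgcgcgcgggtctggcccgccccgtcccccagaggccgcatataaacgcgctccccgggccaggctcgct
FOS: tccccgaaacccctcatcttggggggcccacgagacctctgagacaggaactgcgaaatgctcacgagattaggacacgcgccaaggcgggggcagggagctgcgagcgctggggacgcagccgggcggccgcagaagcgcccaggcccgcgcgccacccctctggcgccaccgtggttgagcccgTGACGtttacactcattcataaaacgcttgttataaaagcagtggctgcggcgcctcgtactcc
With the next 50 bases after the start included, 25% of 27305 RefSeq promoters held TGACG on either strand. Of the 16 immediate early genes found in the files 15 were matched by symbol, 10 of these held it, and so did 5 of the 5 genes called lower. The full palindrome TGACGTCA, which overlaps TGACG on both strands, was in 1.98% of promoters, in 2 of the 15 matched genes and in 1 of the 5, DUSP1. The CArG box, the site of serum response factor, was in 1.29% of promoters, in 1 of the 15 and in 0 of the 5 within this window.

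Stress pathways of protein folding and translation showed no called gene. edgeR called 0 of 14 heat shock genes, 0 of 21 genes of the integrated stress response, 0 of 18 of the unfolded protein response, 0 of 13 mitochondrial chaperones and proteases and 0 of 13 of oxidative stress, where 0.716% of all genes were called. At that share lists of 13 to 21 genes would hold few calls or none, so 0 calls is not a result about stress genes. The median log2 fold changes of the 5 lists were −0.0045, −0.032, −0.035, 0.097 and −0.10. By plain CPM the first 3 medians had the opposite sign, at 0.065, 0.032 and 0.040. ATF4, the transcription factor of the integrated stress response, stood at 238, 187 and 229 CPM on the high side and 197, 163 and 215 CPM on the usual side, with a log2 fold change of 0.10 ± 0.070 (adjusted p = 0.62). Its target DDIT3, or CHOP, had a value of 0.02 ± 0.11 (adjusted p = 0.96), HSPA5, the main chaperone of the endoplasmic reticulum, −0.08 ± 0.069 (0.68), and HSPD1, the mitochondrial chaperonin, −0.04 ± 0.069 (0.88). HSPA1A, an inducible heat shock protein, was low, at 31.2, 13.8 and 24.3 CPM against 26.4, 38.1 and 28.6 CPM, and was not called at −0.38 ± 0.18 (adjusted p = 0.40). Among 22 genes of p53 response and apoptosis, the single call was RPS27L, a p53 target related to a ribosomal protein, which fell by 0.32 ± 0.071 on the log2 scale (adjusted p = 0.021). CDKN1A, the cell cycle inhibitor p21, was not called at −0.67 ± 0.34 (adjusted p = 0.44), on levels of 1.15 to 13.2 CPM.

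**Figure D3:**
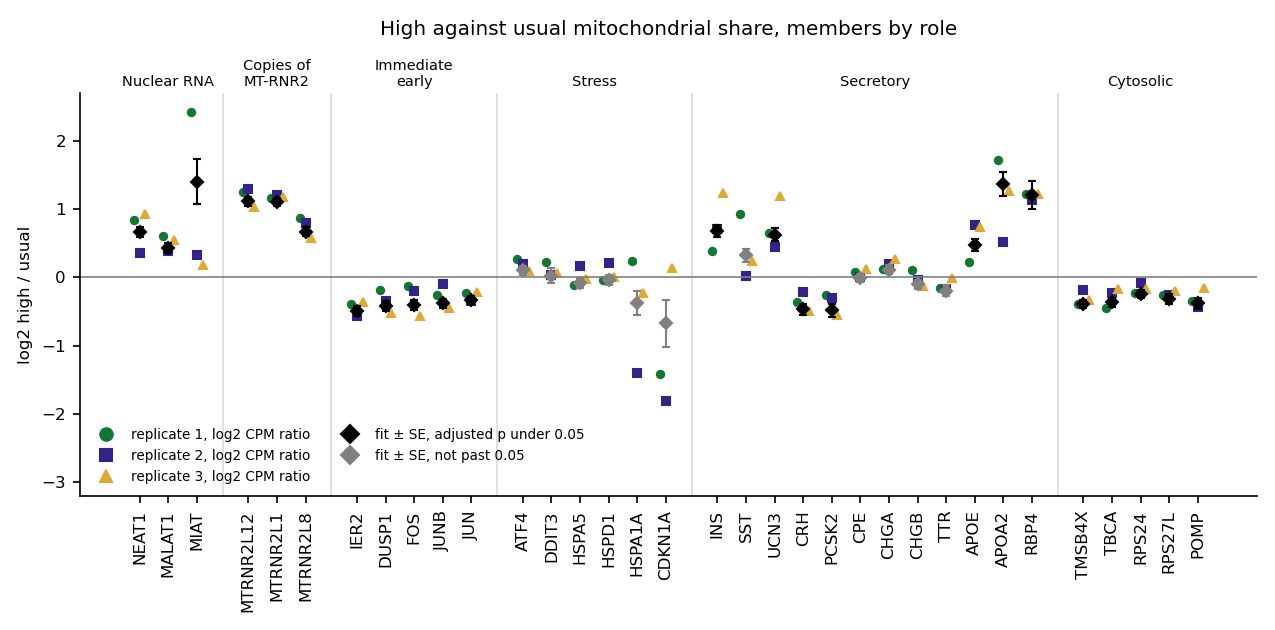
High against usual side for genes grouped by role. Coloured points are log2 ratios of CPM in each library (pseudocount 1 CPM); diamonds are the edgeR log2 fold changes with their SE, black where the adjusted p was under 0.05. NEAT1 and MTRNR2L12 lie above 0 and IER2 and TMSB4X below 0 in all 3 libraries. Of the stress genes, ATF4, DDIT3, HSPA5 and HSPD1 lie near 0. HSPA1A and CDKN1A, which were not called, have fitted values below 0 and libraries on both sides of 0.

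Nuclear-encoded genes of the respiratory chain did not rise with the mitochondrial share. Of 40 tested, 39 had values below 0, none was called, and the median was −0.15. Over all 12849 genes 6310 had values below 0 and 0.716% were called. By plain CPM the median was −0.07, with 21 of the 40 lower in every library and 2 higher in every library, where 9.49% and 24.6% of all genes were. NDUFA2 of complex I, ATP5ME of ATP synthase and COX7C of complex IV had log2 fold changes of −0.30 (adjusted p = 0.067), −0.26 (0.060) and −0.15 (0.27). The 22 genes of mitochondrial upkeep and mitophagy had a median of −0.11 and 0 calls, and TFAM, which packages and transcribes mitochondrial DNA, stood at 27.9, 31.0 and 24.3 CPM against 23.9, 26.9 and 26.9 CPM, a log2 fold change of 0.01 ± 0.15 (adjusted p = 1.00).

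Cytosolic housekeeping genes lay slightly lower as a group. Of 77 cytosolic ribosomal protein genes, 77 had values below 0 in the fit, with a median of −0.17, but only RPS24 was called, falling by 0.25 ± 0.062 on the log2 scale (adjusted p = 0.048). By plain CPM 56 of them were lower in every library (9.49% of all genes were), 1 was higher in every library (24.6% of all genes were) and the median was −0.09. Their summed level was 97265, 98491 and 111761 CPM on the high side and 105884, 101554 and 118424 CPM on the usual side. TMSB4X, which encodes the actin-binding peptide thymosin beta 4, stood at 1629, 1456 and 2544 CPM against 2147, 1662 and 3194 CPM. It was lower in 3 of 3 libraries and fell by 0.39 ± 0.064 (adjusted p = 7.92e-04), or 1.31-fold, the single call among 21 cytoskeletal and abundant cytosolic genes, of which 20 had values below 0.

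The named genes outside the lists that fell encode proteins of several machineries. TBCA, a tubulin chaperone, stood at 221, 281 and 290 CPM on the high side and 301, 331 and 328 CPM on the usual side, without overlap, and fell by 0.37 ± 0.069 on the log2 scale (adjusted p = 0.0033). SNRPE and SNRPB2, proteins of spliceosomal particles, fell by 0.36 and 0.42, TARS, the threonyl-tRNA synthetase, by 0.39 and TMEM14B by 0.40, likewise with every high-side library below every usual-side one. POMP, a proteasome assembly factor, fell by 0.38, CAMTA1, a transcription activator, by 0.37 and PYURF by 0.35. The transcripts of the called genes differed in length between the directions. The longest annotated transcript had a median of 2015 bases over the 43 genes that fell and 4381 bases over the 49 that rose, against 3613.5 bases over all genes tested. Over 5 classes of genes from the shortest to the longest by that length, the median log2 fold change went from −0.081 through −0.016, 0.016 and 0.036 to 0.052. Each class held 2566 to 2571 genes. The shortest class held 23 of the 43 genes that fell and 16 of the 49 that rose, and the longest class held 2 and 14. Short transcripts were thus frequent in both directions, with a lower quartile of 1434.5 bases for genes that fell and 1447 for genes that rose. Over all genes tested it was 2279.25 bases.

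Among the secretory genes, single barcodes held a large part of the UMIs of several hormones other than GCG. INS, the gene of insulin, stood at 3263, 5195 and 1217 CPM on the high side and 2512, 3198 and 518 CPM on the usual side, and its log2 fold change was 0.67 ± 0.088 (adjusted p = 2.73e-05). A single barcode held 13.7%, 61.4% and 19.1% of the INS UMIs of the high side. With each sum's highest barcode left out the value was 0.25 (adjusted p = 0.35), and with the high side limited to 35 to 50% it was −0.73. SST, the gene of somatostatin, at 3091, 2922 and 1778 against 1620, 2894 and 1513 CPM, was not called at 0.32 ± 0.089 (adjusted p = 0.083), and a single barcode held 44.3%, 25.9% and 25.4% of its high-side UMIs. It passed with replicate 2 or 3 left out, at 0.48 and 0.41, and stood at −0.01 without each sum's highest barcode. IAPP, the gene of amylin, was lower by −2.30 ± 0.36 (adjusted p = 4.72e-04) on 6, 15 and 2 UMIs against 802, 231 and 28. A single barcode held 61.5%, 30.7% and 25% of its usual-side UMIs. Without each sum's highest barcode IAPP stood at 2.72, 4.98 and 0.72 CPM against 23.5, 10.2 and 2.4 CPM, lower in 3 of 3 libraries, at −2.38 (adjusted p = 1.22e-04), but without replicate 1 it was at −0.07 (adjusted p = 0.98). Of 10 hormone genes, 5 besides GCG were tested; GHRL (ghrelin) and NPY were not called at −0.80 (adjusted p = 0.19) and −0.58 (adjusted p = 0.63), and PPY, PYY, GAST and CCK were too sparse to test, at no more than 4.41 CPM in any sum. The 6 beta-cell markers, of which INS was nearly the whole, summed to 3285, 5222 and 1249 CPM against 2594, 3232 and 537 CPM. The 5 delta-cell markers, of which SST was nearly the whole, summed to 3128, 2956 and 1791 CPM against 1639, 2912 and 1520 CPM. Scrublet called 2, 0 and 3 doublets on the high side and 4, 13 and 4 on the usual side. With these called doublets left out, all 92 called genes, INS and IAPP among them, kept their sign and were still called by edgeR. The part of free RNA, or of doublets that Scrublet did not call, in these hormone differences was not tested.

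A pair of related peptide genes moved in opposite directions. UCN3, the gene of urocortin 3, stood at 105, 157 and 69.5 CPM on the high side and 66.7, 115 and 30.0 CPM on the usual side, was higher in 3 of 3 libraries and rose by 0.62 ± 0.099 (adjusted p = 4.72e-04), or 1.54-fold. CRH, the gene of corticotropin-releasing hormone, a peptide of the same family, stood at 125, 117 and 149 CPM against 161, 137 and 211 CPM and fell by 0.47 ± 0.080 (adjusted p = 0.0011), or 1.39-fold. Among 8 prohormone-processing genes only PCSK2, the convertase that cleaves proglucagon to glucagon, was called. It stood at 79.2, 50.5 and 79.2 CPM against 95.4, 62.5 and 117 CPM, was lower in 3 of 3 libraries and fell by 0.48 ± 0.094 (adjusted p = 0.0053); without replicate 3 the value was −0.37 (adjusted p = 0.20). Its partner enzyme CPE, the carboxypeptidase of the granule, was at −0.01 ± 0.059 (adjusted p = 0.98).

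No gene on the lists of the granule and its release machinery was called, where 0.716% of all genes were. At that share lists of this size would hold few calls or none, so 0 calls is not a result about these genes. Of 11 secretory granule genes 8 had values above 0, as did 6539 of all 12849 genes, and 0 were called, with a median of 0.11. CHGA, a granin that packs the granule, stood at 14496, 17188 and 6215 CPM against 13337, 15082 and 5185 CPM and had a log2 fold change of 0.11 ± 0.070 (adjusted p = 0.57), while its relative CHGB was at −0.11 ± 0.062 (0.52). Of 21 exocytosis genes 18 had values above 0 and 0 were called (median 0.12); EXOC7, a subunit of the exocyst that tethers vesicles and no member of that list, rose by 0.46 ± 0.081 (adjusted p = 0.0018) without overlap, at 131, 121 and 112 against 86.1, 82.7 and 80.3 CPM. The 25 genes of entry into the endoplasmic reticulum and glycosylation had a median of −0.09 in the fit, which was 0.005 by plain CPM, and the 26 of transport to the Golgi had 13 values on each side of 0; neither list had a call. The 16 tested transcription factors of alpha and endocrine cells had 0 calls and a median of −0.05.

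Secreted carrier and plasma proteins, typical of liver and yolk sac and present in these cultures, were the list with the most calls, 5 higher and 2 lower of 15, where 0.381% and 0.335% of all genes were called. APOE, the apolipoprotein of lipid transport between cells, stood at 176, 177 and 243 CPM on the high side and 151, 103 and 146 CPM on the usual side, without overlap, and rose by 0.47 ± 0.087 (adjusted p = 0.0027). APOA2, an apolipoprotein of high-density lipoprotein, stood at 69.5, 17.2 and 18.8 against 20.4, 11.8 and 7.24 CPM and rose by 1.36 ± 0.18 (adjusted p = 2.29e-05); without replicate 1 it was at 0.92 (adjusted p = 0.13). RBP4, the plasma carrier of retinol, is also on the list of delta-cell markers. It stood at 31.2, 24.1 and 9.73 against 12.7, 10.5 and 3.62 CPM and rose by 1.20 ± 0.20 (adjusted p = 0.0010). Among barcodes of 3000 to 15000 other UMIs it was at 0.68 (adjusted p = 0.54). Without barcodes in which INS or SST reached 1% it was at 0.46 (adjusted p = 0.50). With the high side limited to 35 to 50% its value was −0.97 (adjusted p = 0.74). A single barcode held 52.4% of the 21 RBP4 UMIs on the high side of replicate 2, and without each sum's highest barcode the value was 0.99 (adjusted p = 0.027). APOA1 and APOC3, further apolipoproteins, rose by 0.44 (adjusted p = 0.025) and 0.29 (adjusted p = 0.030). GC, the vitamin D binding protein and an alpha-cell marker in islets, stood at 716, 573 and 582 against 1079, 687 and 669 CPM and fell by 0.44 ± 0.070 (adjusted p = 4.35e-04). ALB, albumin, was called lower at −1.27, but a single usual-side barcode held 74.0% of its UMIs in replicate 1, and without each sum's highest barcode it was at −0.02. TTR, transthyretin, the most abundant of the list, stood at 78876, 76377 and 87413 against 87964, 86481 and 88084 CPM and was not called at −0.20 ± 0.084 (adjusted p = 0.33). The 5 hepatic markers summed to 150, 89.6 and 84.8 CPM on the high side and 158, 87.2 and 69.2 CPM on the usual side.

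Across finer bands of mitochondrial share the level of nuclear RNA was mostly higher in each further band. NEAT1 in replicate 1 stood at 60.3, 120, 163, 196, 207 and 327 CPM in the bands 8 to 12, 12 to 16, 16 to 20, 20 to 25, 25 to 35 and 35 to 50%, and in replicate 3 at 79.0, 125, 194, 195, 258 and 386 CPM. In replicate 2 it went from 108 to 228 CPM up to the band of 25 to 35% and was 95.7 CPM in the 14 barcodes at 35 to 50%. NEAT1 thus already varied within the usual side. MALAT1 in replicate 1 was nearly level across the usual side, at 24176, 22983 and 24758 CPM, and then stood at 30041, 31091 and 55634 CPM. In the barcodes above 50% it reached 173768, 109780 and 106152 CPM in replicates 1, 2 and 3.

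Cytosolic groups went the other way, mostly at the upper end. The summed ribosomal protein level of replicate 1 was 109357 CPM at 8 to 12%, 102173 CPM at 25 to 35%, 79304 CPM at 35 to 50% and 23722 CPM above 50%. In replicates 2 and 3 it was 92603 and 103804 CPM at 35 to 50% and 48955 and 55552 CPM above 50%. The immediate early list had no single course. In replicate 3 it went from 3966 CPM at 8 to 12% to 2972 CPM at 25 to 35% and 4123 CPM at 35 to 50%, and in replicate 1 from 3483 to 3139 and 3094 CPM, with 7260 CPM in the 30 barcodes above 50%. The summed secretory granule level was higher at 35 to 50% than at 8 to 12% in each library, at 19821 against 14206, 22674 against 15743 and 10420 against 8393 CPM. The bands are a description, as they subdivide the values that chose the sides.

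**Figure D4:**
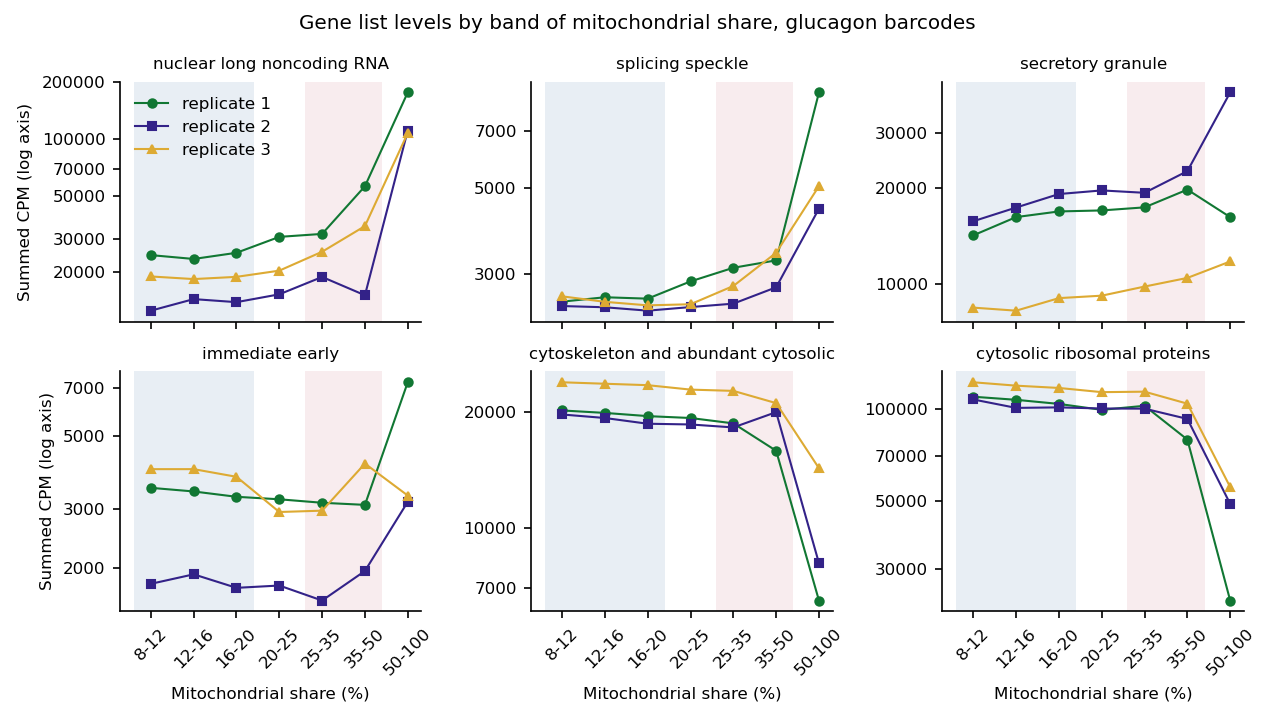
Summed CPM of 6 gene lists in glucagon barcodes by band of mitochondrial share, on log axes with a separate range per panel; lines are libraries, and shading marks the usual side (blue) and the high side (red). The nuclear RNA list is highest and the ribosomal and cytosolic lists are lowest above 50%, where the 3 libraries hold 30, 14 and 9 barcodes.

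The same contrast was made in barcodes with GCG under 5%, which share libraries but no barcodes with the glucagon barcodes. The high side had 81, 29 and 153 such barcodes and the usual side 192, 95 and 424. There 437 of 10446 genes were higher (4.18%) and 747 lower (7.15%), or 11.3% in all. In these barcodes the 2 sides also lay further apart in depth, with medians of 3400, 10605 and 4574 other UMIs against 10479.5, 13498 and 7387.5. They hold several cell types that were not separated, and cell type markers differed between the sides. edgeR called 5 of 5 mesenchyme, 3 of 3 neural and 7 of 8 cycling markers lower, and 1 of 5 alpha and 1 of 3 hepatic markers higher. SST fell by 3.34 (adjusted p = 4.06e-06) and GHRL by 3.65 (adjusted p = 8.08e-07) on the log2 scale. The part of a changed mixture in this contrast was not tested. Of the 49 genes higher in glucagon barcodes 48 were tested here, 43 had the same sign and 29 were called in the same direction, which is 59.2% of the 49 and 6.64% of the 437. The 49 and the 29 both include the 5 called MTRNR2L genes. Their calls may follow from the mitochondrial share that chose the sides of both kinds, so their agreement is not independent of that choice. Of the 43 lower genes 38 had the same sign and 14 were called, which is 32.6% of the 43 and 1.87% of the 747.

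The nuclear RNAs and the copies of MT-RNR2 rose in both kinds of barcode, and the sides of both kinds were chosen by the same mitochondrial share. In the other barcodes NEAT1 rose by 0.99 ± 0.20 (adjusted p = 0.0030), MALAT1 by 0.65 ± 0.19 (adjusted p = 0.031) and MTRNR2L12 by 1.35 ± 0.15 (adjusted p = 4.86e-06), and the tests of the difference between the kinds did not pass (adjusted p = 0.68, 0.73 and 0.59). MLXIPL and UCN3 also rose there, by 0.74 (adjusted p = 0.014) and 0.87 (adjusted p = 0.0013). The immediate early list had 0 calls of 15 in the other barcodes, with a median of −0.03 and IER2 at −0.15 ± 0.16, but the difference between the kinds was not called for any of the 5 genes (IER2, adjusted p = 0.45). It was called for 1 other member, FOSB, at −0.77 ± 0.19 (adjusted p = 0.045), whose value was −0.28 in glucagon barcodes and 0.44 in the others, neither of them called. Ribosomal protein genes fell more widely, with 68 of 77 called lower and a median of −0.59, and 17 of 21 cytoskeletal and cytosolic genes were called lower, where 7.15% of all genes were. The difference between the kinds was called for 6 and 8 of these genes, against 119 of 11508 genes (1.03%) with a more positive value in glucagon barcodes and 14 (0.122%) with a more negative one, or 1.16% in all. With both kinds limited to barcodes of 3000 to 15000 other UMIs edgeR called 0 such differences in either direction, with 367 and 260 at an unadjusted p under 0.05.

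**Figure D5:**
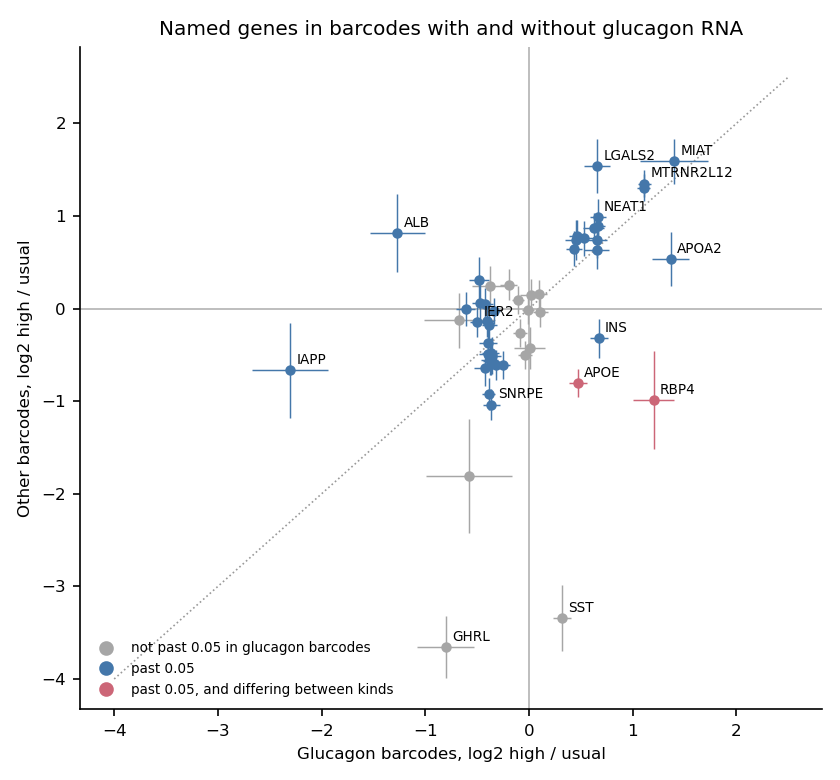
edgeR log2 fold change of high against usual side for the named genes other than GCG, in glucagon barcodes (horizontal axis) and in barcodes with GCG under 5% (vertical axis), with SE bars and a dotted line of equality. NEAT1, MIAT and MTRNR2L12 lie above 0 on both axes, and APOE and RBP4, in red, lie above 0 for glucagon barcodes and below 0 for the others.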

How the data were processed

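A matrix for each of the 3 libraries was used. Per the file headers and the submitters' processing notes, the authors made them with Cell Ranger 4.0.0 against GRCh38, and the deposited values are raw counts of UMIs per gene and barcode. Neither the gene annotation's version nor how cells were called is given in the sources used here. The libraries held 30139788, 31122791 and 30980799 UMIs in 2850, 2576 and 4257 barcodes, with 33538 features. Pairs of libraries shared 1, 4 and 2 barcode sequences, none among the barcodes compared.

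Counts outside the 13 mitochondrial genes were summed per library and side and fitted with edgeR 4.0.16 in R 4.3.3 (quasi-likelihood, TMM, filterByExpr), with Benjamini-Hochberg adjustment over all genes and a threshold of 0.05. Since the high and the usual sum of a replicate share 1 library, library was fitted as a block. The SE is |log2 fold change| / √F, with F from the quasi-likelihood test. It too rests on variation shared across genes, and can be smaller than a gene's own spread over the 3 libraries. On simulated counts for this comparison over 12627 genes, the fit recovered 82% of genes raised by 1 log2 unit, 62% of genes lowered by 1, 100% raised by 2 and 88% lowered by 2, with 6 false calls of 12427. The changed genes were drawn only from those above a lower limit on counts. Changes under 1 log2 unit were not simulated, so lists with 0 calls may hold smaller differences that the fit would miss. DESeq2 1.42.0 was an alternative. Doublets were called with Scrublet (scanpy 1.11.5) at an expected 0.8% per 1000 barcodes; called barcodes were kept in the comparison and left out in an alternative. A GENCODE annotation of GRCh38 gave positions and transcript lengths, RefSeq the promoters.

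The barcodes, 23 function lists (487 of 493 entries found by symbol) and 12 marker lists were chosen with earlier results of these data known. Named genes are a fixed set of hormones, stress, nuclear and secretory genes, up to 4 called members per list with the largest change, and up to 10 called genes per direction outside the lists at 50 CPM or more with the same sign in all 3 libraries. Other genes named are list members or were chosen after their values were seen. A marker gene on the lists is not reported here.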

Additional observations from a re-analysis of the deposited data

Results flagged for a closer look

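For 4 of the genes named in the text the difference between the high and usual sides itself differed between glucagon barcodes and barcodes with GCG under 5%, by edgeR's interaction test. APOE was higher on the high side of glucagon barcodes and lower on the high side of the other barcodes, where it stood at 223, 174 and 214 CPM against 368, 288 and 348 CPM without overlap. Its log2 fold change there was −0.80 ± 0.15 (adjusted p = 0.0023), and the difference between the kinds was 1.33 ± 0.17 (adjusted p = 1.41e-04). It stayed between 1.2 and 1.5 with each replicate left out, and was 1.05 (adjusted p = 0.19) with both kinds limited to 3000 to 15000 other UMIs, where the value in the other barcodes was −0.29 (adjusted p = 0.49). Without the replicate block that value was −0.80 (adjusted p = 0.074). RBP4 stood at 4.42, 22.1 and 3.6 CPM on the high side of the other barcodes and 23.9, 9.53 and 11.4 CPM on their usual side, with replicate 2 opposite to the others. Its difference between the kinds was 2.24 ± 0.56 (adjusted p = 0.049), and it did not pass without replicate 1 at 1.58 (adjusted p = 0.56), without replicate 3 at 1.85 (adjusted p = 0.25) or at 3000 to 15000 UMIs at 1.64 (adjusted p = 0.87). RAI14, chosen after its values were seen, was at 13.3, 22.1 and 27.6 CPM against 33.3, 32.3 and 37.4 CPM in the other barcodes. Its difference between the kinds was 1.57 ± 0.29 (adjusted p = 0.0081), with 1.30 (adjusted p = 0.24) without replicate 1, 1.91 (adjusted p = 0.050) without replicate 3 and 1.41 (adjusted p = 0.32) at 3000 to 15000 UMIs. FOSB, likewise chosen, was at 482, 50.5 and 257 CPM against 327, 68.9 and 138 CPM there. Its difference was −0.77 ± 0.19 (adjusted p = 0.045), with −0.89 (adjusted p = 0.27) without replicate 1, −0.56 (adjusted p = 0.38) without replicate 3 and −0.43 (adjusted p = 0.76) at 3000 to 15000 UMIs. The other barcodes mix cell types, and the part of a changed mixture in these genes was not tested.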

How the results depend on the processing

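Where tested, the 92 called genes kept their sign in each alternative except 1 gene among barcodes of 3000 to 15000 other UMIs and 3 with the high side at 35 to 50%, while their number changed. The 49 higher calls became 13 with DESeq2, 76 with no filter on low counts, 23 with thinning to 3000 UMIs, 76 at 3000 to 15000 UMIs, 24 with the high side at 35 to 50% and 75 without each gene's highest barcode, an alternative chosen after seeing the data. The 43 lower calls became 245 with no filter, 156 at 3000 to 15000 UMIs, 25 and 181 with the high side at 25 to 35% and 35 to 50%, 83 with at least 2000 genes, 88 without called doublets, 25 with GCG at 10% or more, 67 without INS or SST at 1% and 27 without the highest barcode. With each replicate left out in turn they ranged from 33 to 97 higher and 23 to 158 lower, most without replicate 2. Of the 92, 37 were still called with DESeq2, 29 after thinning, 45 without replicate 1 and 35 without replicate 3.

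Without the replicate block, edgeR called 0 higher and 0 lower (312 and 262 at an unadjusted p under 0.05), and 7 and 55 in the other barcodes. In those the 437 higher became 65 with DESeq2, 32 at 3000 to 15000 UMIs and 61 to 690 without a replicate, and the 747 lower became 272, 155 and 253 to 1194, with 1184 without the filter. Differences between the kinds (119 and 14) became 240 and 50 with DESeq2, 226 and 81 without the filter, 0 and 0 at 3000 to 15000 UMIs, and 19 to 51 and 0 to 4 without a replicate. The 0 lower calls came without replicate 1, with 434 at an unadjusted p under 0.05. The depth limits for the other barcodes and the kinds were added after seeing the data. The cause of these shifts was not tested.

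Of the named genes that changed sign, TFAM, DDIT3, HSPD1 and CPE were near 0, while RBP4, MIAT, INS, IAPP and SST were not. With the high side at 35 to 50% INS was at −0.73, SST at −0.37, RBP4 at −0.97, MIAT at −1.25, TFAM at −0.17 and DDIT3 at −0.15. SST was at −0.046 without INS or SST barcodes and −0.014 without its highest barcode, and IAPP at 0.37 at 3000 to 15000 UMIs. TFAM was at −0.026 without the filter, −0.0081 without the replicate block, −0.13 after thinning, −0.063 without INS or SST barcodes and −0.064 to 0.14 without a replicate. DDIT3 was at −0.0081 without the filter, −0.38 after thinning, −0.078 at 3000 to 15000 UMIs, −0.0093 with the usual side at 12 to 20%, −0.021 with 2000 genes, −0.12 with GCG at 10% and −0.029 to 0.071 without a replicate. HSPD1 was at 0.0079 with GCG at 10% and CPE at 0.013, and CPE at 0.054 without its highest barcode. Without a replicate HSPD1 ranged from −0.13 to 0.024 and CPE from −0.030 to 0.0036. In replicate 2 the high side held only 56 barcodes, which limits its precision.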

Other observations

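A few further genes past the threshold in edgeR's test belong to serotonin and glucose handling and were singled out on account of their values. TPH1, the first enzyme of serotonin synthesis, stood at 15.6, 10.3 and 41.0 CPM on the high side of glucagon barcodes, on 24, 9 and 59 UMIs, and at 7.32, 4.18 and 6.45 CPM on the usual side, without overlap. It rose by 1.76 ± 0.25 (adjusted p = 1.28e-04), and SLC18A2, the vesicular monoamine transporter, at 79.2, 70.1 and 96.6 against 56.6, 64.3 and 56.7 CPM, rose by 0.42 ± 0.10 (adjusted p = 0.037). The other enterochromaffin markers LMX1A, SLC18A1 and TAC1 were below 1 CPM in every sum, and DDC, the decarboxylase of that pathway, which is also made by other endocrine cells, was not called at 0.11 ± 0.081 (adjusted p = 0.64). DDC stood at 162, 139 and 174 CPM against 139, 154 and 129 CPM and made up most of the list's sum. The 5 enterochromaffin markers together stood at 178, 149 and 215 CPM against 147, 159 and 136 CPM, and their part in these differences was not tested. Without each sum's highest barcode all 92 called genes, TPH1 among them, kept their sign, and edgeR still called 63. The value of TPH1 in that fit is not given here.

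PKLR, the liver-type pyruvate kinase, stood at 16.2, 18.4 and 37.5 CPM against 7.17, 11.6 and 9.50 CPM and rose by 1.30 ± 0.22 (adjusted p = 7.92e-04). These are low levels in high-side sums of 1540478, 870709 and 1439235 UMIs. PKLR kept its sign without each sum's highest barcode, and its value in that fit is not given here. ABCC8, the sulfonylurea receptor of the ATP-sensitive potassium channel, stood at 425, 370 and 372 CPM against 283, 342 and 244 CPM and rose by 0.37 ± 0.070 (adjusted p = 0.0032). TXNIP, an arrestin that restrains glucose uptake like ARRDC4, stood at 277, 191 and 317 CPM against 318, 241 and 380 CPM and fell by 0.34 ± 0.066 (adjusted p = 0.0042). Of 21 tested genes on the glycolysis list 0 were called by edgeR, 12 had values above 0, and the median was 0.025 against 0.0046 over all genes. Over all 12849 genes 0.716% were called and 6539 had values above 0. RAI14, an actin-binding protein, rose by 0.82 ± 0.17 (adjusted p = 0.014), at 27.3, 25.3 and 26.4 against 13.5, 14.2 and 14.8 CPM.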
